A study of Mus musculus with 294 samples.

Results

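Penk, Cntn4 and Pcdh9 are 3 of the 15124 genes counted in single cells of the neural crest lineage from the embryonic mouse heart. They were chosen from these same cells: in an earlier clustering of all cells of the series the 3 genes were among those that led 1 cluster, and the name "neural-type" came with that choice. Each gene is described here in CPM, its share of a cell's reads times 1000000. Cells with Penk at 100 CPM or more (Penk-high) were then set beside cells below 10 CPM (Penk-low). That comparison used 45 and 97 cells of name series 4 to 7, a grouping by cell name described below. Since measured values chose the genes and the cells, the co-occurrence of the 3 genes and the Penk-high against Penk-low values are descriptions with no test.

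All cells came from mice that carry Wnt1-Cre and R26-EYFP, in which Cre made under the Wnt1 promoter switches on the yellow fluorescent protein EYFP in neural crest cells and their descendants. EYFP-positive cells from the region around the aorticopulmonary septum of the outflow tract, at embryonic days 17.5, 14.5, 12.5 and 11.5, were sorted, captured on Fluidigm C1 chips, photographed as single cells and sequenced as full-length cDNA. Every cell shares this genotype and sort, so there is no control group among them, and no label ties a cell to a stage, an animal or a chip, so all cells count as 1 sample. Cells are grouped only by the leading digit of their name, from 1 to 7 (called name series, with 58, 48, 38, 38, 34, 34 and 44 cells), whose meaning the labels do not give.

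Penk encodes preproenkephalin, the precursor from which the opioid peptides Met- and Leu-enkephalin are cut. It is best known from neurons and adrenal chromaffin cells, and it is also transcribed in mesenchymal tissues of the embryo. Cntn4 encodes contactin-4, a cell adhesion molecule of the immunoglobulin superfamily that is anchored to the membrane by a lipid and is known from axon guidance. Pcdh9 encodes protocadherin-9, a non-clustered protocadherin of the delta group that is abundant in the developing brain.

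In GENCODE M21 on GRCm38, Penk (ENSMUSG00000045573.9) is a protein-coding gene on the minus strand at chr4:4133531-4138819. Cntn4 (ENSMUSG00000064293.14) is on the plus strand at chr6:105677660-106699310, and Pcdh9 (ENSMUSG00000055421.8) on the minus strand at chr14:93013410-93890679. The antisense transcript A830012C17Rik covers 14.3% of the exon bases of Penk. It is not a row of the count table, and whether counting used strand is not given in the sources used here, so reads in those bases cannot be told apart.

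Transcription of Penk is a textbook target of cyclic AMP signalling through the cAMP response element, TGACGTCA. RefSeq promoters on GRCm38.p6 were read for the other two genes, to show whether the core of that element, TGACG on either strand (CGTCA when read on the printed strand), stands in the 250 bases before their first listed start. The Cntn4 stretch, chr6:106118515-106118764 on the plus strand, lies inside the gene and overlaps no exon of GENCODE M21. The Pcdh9 stretch is chr14:93890680-93890929 on the minus strand and overlaps no annotated gene. Capitals mark the core.
Cntn4: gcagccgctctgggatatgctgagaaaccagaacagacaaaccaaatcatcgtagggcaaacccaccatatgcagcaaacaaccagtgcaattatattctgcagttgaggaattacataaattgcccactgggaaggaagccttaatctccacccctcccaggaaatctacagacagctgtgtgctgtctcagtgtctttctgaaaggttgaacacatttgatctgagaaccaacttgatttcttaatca
Pcdh9: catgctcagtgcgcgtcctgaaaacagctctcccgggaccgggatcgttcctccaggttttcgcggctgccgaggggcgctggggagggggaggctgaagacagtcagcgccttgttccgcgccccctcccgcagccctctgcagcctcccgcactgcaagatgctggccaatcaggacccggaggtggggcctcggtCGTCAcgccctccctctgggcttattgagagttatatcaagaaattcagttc
The Pcdh9 stretch held 1 match, starting 52 bases before the start site, and the Cntn4 stretch held 0. The core occurs in 17.86% of 27025 promoter stretches of the same length, 1 per gene symbol, and the full element in 1.624%. A match is a run of letters and not a shown binding site.

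Penk was the most abundant of the 3 genes. Per kilobase of exon, its mean over all cells was 236.6 CPM, compared with 4.74 CPM for Cntn4 and 7.85 CPM for Pcdh9. Its level in single cells ran from 0 to 28408 CPM with a median of 0.520 CPM, so most of its RNA lay in few cells. At 100 CPM or more it was found in 68 cells, 23.1% of all (exact 95% Clopper-Pearson interval 18.4% to 28.4%), and 24 cells passed 1000 CPM. Such intervals cover counting error only.

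The cell with the highest level, C727 of name series 7, had 28408 CPM of Penk, or 2.84% of its 1757070 reads. C712 of the same series followed with 10433 CPM, and C355 of name series 3 with 7169 CPM. These 3 cells came from 2 name series, and every name series held at least 1 cell above 1000 CPM.

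By name series, the share of Penk-high cells was 15.5% (9 of 58) in series 1, 12.5% (6 of 48) in series 2 and 21.1% (8 of 38) in series 3. It was 34.2% (13 of 38) in series 4, 26.5% (9 of 34) in series 5 and 11.8% (4 of 34) in series 6. Name series 7 had the highest share, 43.2% (19 of 44; 28.3% to 58.97%), and its interval overlapped those of series 3, 4 and 5. With each cell thinned to 286313 reads, which left out 30 shallower cells, the shares of series 1 and 2 were 17.6% and 15.8% and that of series 7 was 44.2%, and the order of these 3 series was the same.

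Name series 1 also differed in its background of low values. There, 53 of 58 cells had at least 1 Penk read although 9 reached 100 CPM, and the median level was 4.15 CPM. Pcdh9 likewise had a read in 53 of its cells, and Cntn4 in 31. Those cells listed a median of 7718 genes with a read, compared with 3123 to 4676.5 in the other name series, so a single read there says little of a cell's state.

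**Figure D1:**
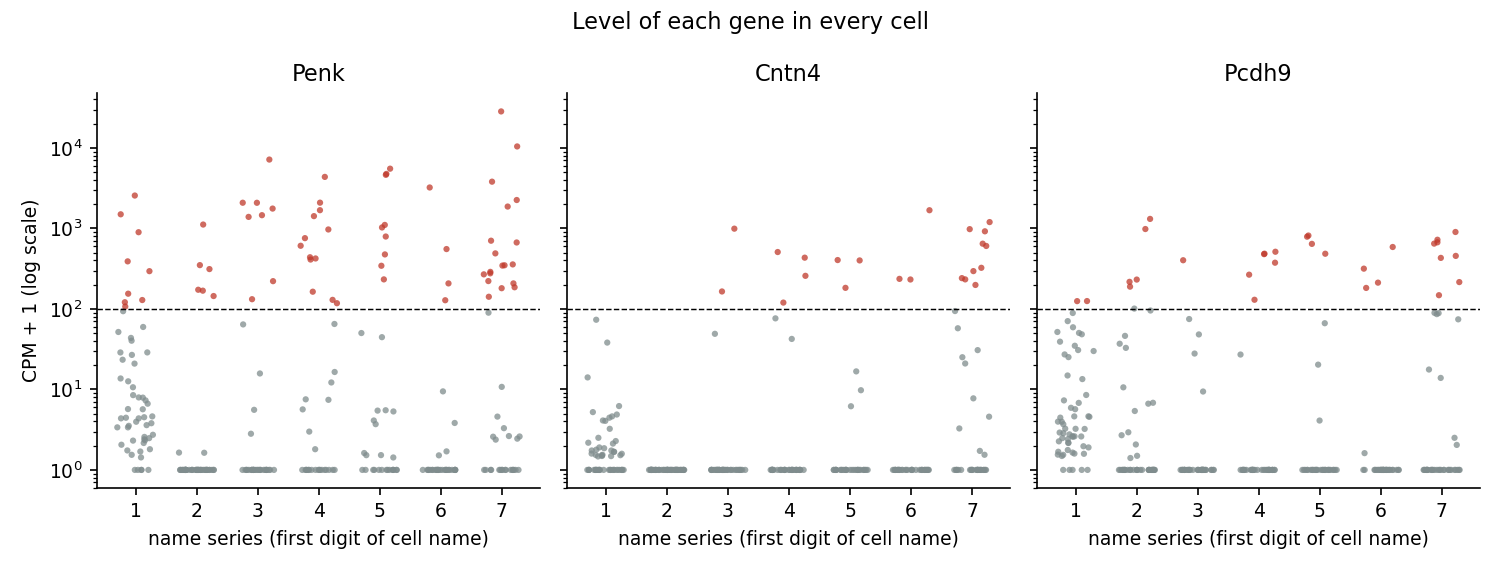
Level of Penk, Cntn4 and Pcdh9 in each cell, as CPM + 1 on a log axis, by name series (leading digit of the cell name); red points are at 100 CPM or more, the dashed line. Penk reaches 100 CPM in 68 cells of all 7 name series, while Cntn4 has no point above 0 in series 2 and a broad band of low values fills series 1.

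Cntn4 was rarer and was not spread evenly. It reached 100 CPM in 22 cells (7.48%; 4.75% to 11.1%), with a lowest, median and highest level among these of 118.8, 361.3 and 1682 CPM. Of the 22 cells, 10 were in name series 7 (22.7% of its cells), 4 in series 4, 3 each in series 5 and 6, 2 in series 3 and 0 in series 1 and 2. In series 2 not a single Cntn4 read was counted in 48 cells, which allows a share of cells with a read of up to 7.40% (exact 95% limit).

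Pcdh9 reached 100 CPM in 30 cells (10.2%; 6.99% to 14.3%), at 123.9 to 1312 CPM with a median of 442.1 CPM. All name series held such cells: 2, 5, 1, 6, 4, 4 and 8 in series 1 to 7. Its highest level was in C255 of series 2, a cell with no Penk and no Cntn4 read, so the cell highest for Pcdh9 was not high for Penk.

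Cntn4 overlapped Penk more closely than Pcdh9 did, as a description of cells from which the genes were chosen. Of the 22 cells at 100 CPM of Cntn4, 17 were also Penk-high (77.3%), and these were 25% of the 68 Penk-high cells. Below 100 CPM of Penk, 5 cells had Cntn4 at that level (2.21% of such cells). For Pcdh9, 15 of 30 cells were Penk-high (50.0%), which is 22.1% of the Penk-high cells, and 15 of the other cells had it (6.64% of them).

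All 3 genes reached 100 CPM together in 7 cells, 4 of them in name series 7, 2 in series 5 and 1 in series 4. In series 7 these were C743, C721, C729 and C723, with Penk at 179.8, 184.7, 702.8 and 3808 CPM. C420 of series 4 and C527 and C551 of series 5 were the others, with Penk at 756, 4754 and 4630 CPM. Cntn4 and Pcdh9 were together without Penk in 0 cells, and Penk stood alone in 43 of the 88 cells that had any of the 3. Below 100 CPM of Penk, Cntn4 and Pcdh9 were at that level in only 2.21% and 6.64% of cells, so nothing is read from the 0.

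Within name series 4 to 7, and without C722 and C755, the share of cells with Cntn4 at 100 CPM was higher where Penk was higher. It was 5.15% (5 of 97 cells) below 10 CPM of Penk, 20% (6 of 30) between 100 and 1000 CPM, and 60% (9 of 15; 32.3% to 83.7%) at 1000 CPM or more. For Pcdh9 the shares were 9.28% (9 of 97), 23.3% (7 of 30) and 40% (6 of 15; 16.3% to 67.7%). The 6 cells between 10 and 100 CPM of Penk had neither gene at that level. The cells nearest the thresholds were C772 at 88.8 CPM and C437 at 116.7 CPM of Penk, and C633 at 8.45 CPM and C458 at 11.2 CPM.

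C722 and C755 of name series 7 were left out because cardiomyocyte genes stood far above those of the other 42 cells of that series. Myl2, the ventricular myosin light chain, was at 8678 and 9084 CPM in them, and at a median of 0 and at most 144.2 CPM in the 42. Penk was at 1.60 and 9.75 CPM in the 2 cells, and neither was high for Cntn4 or Pcdh9.

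**Figure D2:**
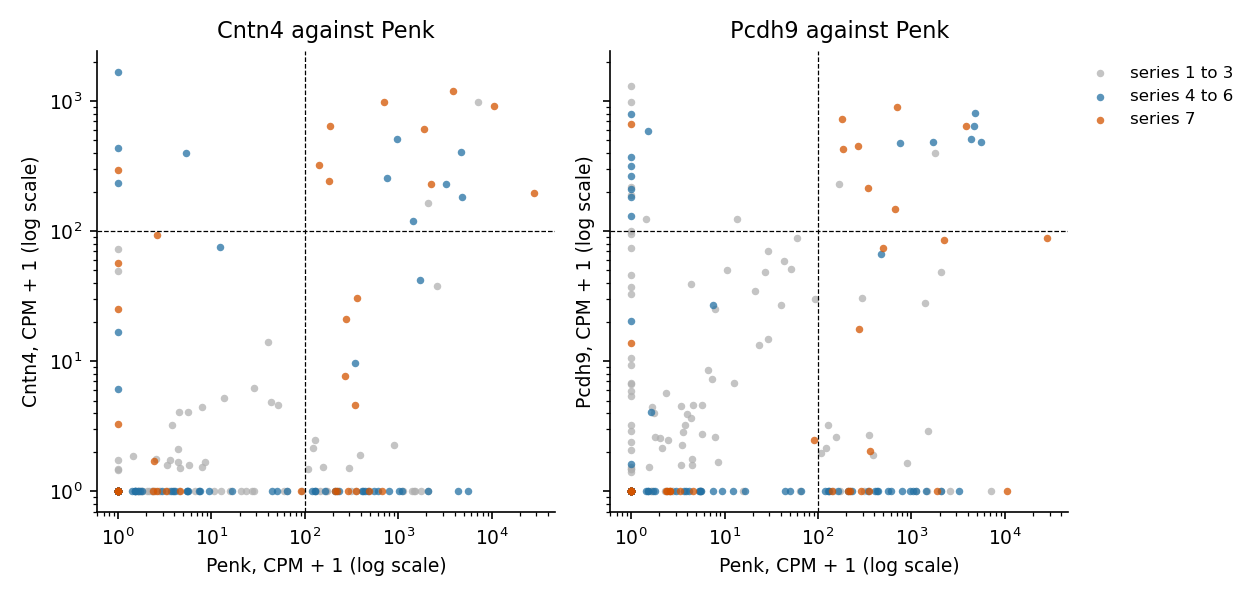
Cntn4 (left) and Pcdh9 (right) against Penk in each cell, as CPM + 1 on log axes, without C722 and C755; dashed lines mark 100 CPM, grey points are name series 1 to 3, blue 4 to 6 and orange 7. In the upper right corner 17 cells are high for Penk and Cntn4 and 15 for Penk and Pcdh9, while many Penk-high cells lie on the lower edge.

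For the comparison of whole cells, the mean CPM of each gene was taken per name series and averaged over series 4 to 7 with equal weight. A gene was called higher when the ratio of the means, with 10 CPM added to each, was 2 or more and Penk-high cells had the higher mean in every one of the 4 series. The sides held 13 and 22 cells in series 4, 9 and 23 in series 5, 4 and 30 in series 6, and 19 and 22 in series 7. Median depth was 1221227 reads in Penk-high and 1108452 in Penk-low cells, with medians of 4409 and 3822 genes. In series 7 the medians were 5044 and 4121 genes, and the part of this gap in the folds was not tested.

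The contrast took in 8348 genes that reached 10 CPM in no less than 10% of the compared cells. Of these, 1.76% were called higher and 3.7% lower. Of the 3 genes only Penk, which defined the sides, was among those called higher. In the mean over series alone, with no demand on each series, 526 genes (6.3%) were 2-fold or more higher. Cntn4 and Pcdh9 were among those. The contrast is part of the rule that chose the genes, so nothing is read from these counts.

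Cntn4 ran from 0 to 1198 CPM in Penk-high cells and from 0 to 1682 CPM in Penk-low cells, with a median of 0 on both sides. Its mean was 119.8 CPM against 30.8 CPM, 3.18-fold. Penk-high means were 71.1, 66.01, 57.8 and 284.1 CPM in series 4 to 7, and Penk-low means 19.6, 18.3, 63.9 and 21.4 CPM. Series 6 was the exception to the direction, and there a single Penk-low cell, C659, held 1682 CPM of Cntn4. Without that cell the ratio was 4.83 and the direction held in 4 of 4 series, as it also did when any of C611, C660 or C666, the Penk-high cells of series 6 other than C662, was left out. Without name series 7 the ratio was 1.71.

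Pcdh9 had means of 133.8 and 36.4 CPM, a ratio of 3.10, with ranges of 0 to 902 CPM and 0 to 789 CPM and a median of 0 on both sides. Penk-high means in series 4 to 7 were 113.5, 222.9, 0 and 198.97 CPM, and Penk-low means 36.1, 35.3, 43.2 and 31.1 CPM. All 4 Penk-high cells of series 6 lacked Pcdh9 reads, and without that series the ratio was 4.27. With Penk-high set at 500 CPM or more, which drops series 6 for too few cells, the ratio was 9.51 for Cntn4 and 6.27 for Pcdh9.

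Name series 1 to 3 were not part of the contrast, though they were part of the clustering behind the choice of the genes. In series 3, with 8 Penk-high and 28 Penk-low cells, Cntn4 had means of 144.5 and 1.72 CPM and Pcdh9 of 59.4 and 2.94 CPM. There the 2 Cntn4-high cells, C333 and C355, had Penk at 2084 and 7169 CPM, and C316, the only Pcdh9-high cell, had Penk at 1763 CPM. In series 2 the order was turned for Pcdh9, with means of 38.7 CPM in 6 Penk-high and 72.2 CPM in 42 Penk-low cells. Its 5 Pcdh9-high cells included 1 Penk-high cell, C253. In series 1, with 9 and 37 cells, means were 4.84 and 2.51 CPM for Cntn4 and 4.37 and 8.23 CPM for Pcdh9, all near the low background of that series.

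The name "neural-type" was checked against markers of neurons, glia and other cell types. The neuron list has 15 genes, all rows of the table, and its summed level had a median of 192.4 CPM (0 to 1886) in Penk-high cells and 97.5 CPM (0 to 1331) in Penk-low cells. Snap25, a synaptic vesicle fusion protein, and Prph, Nefl and Nefm, intermediate filaments of neurons, had 0 reads in the 45 Penk-high cells. They had a read in 3, 0, 0 and 1 of the 97 Penk-low cells, so these zeros are not particular to Penk-high cells. Stmn2, a neuronal microtubule protein, was at 100 CPM in 0 of them, which allows a share of up to 7.87% (exact 95% limit). Of the 4 neuron genes frequent enough to enter the contrast, none was called in either direction.

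The neuron genes that were present also occurred without Penk. Tubb3, a beta-tubulin of neurons, was at 100 CPM in 22.2% of Penk-high and 21.6% of Penk-low cells, and Gap43, a growth cone protein, in 11.1% and 8.25%. Uchl1, a neuronal ubiquitin hydrolase, was in 28.9% and 18.6%, with the higher mean in 4 of 4 series. Syt1, a calcium sensor of synaptic vesicles, was in 13.3% (6 of 45) and 3.09% (3 of 97). Its means were 36.9 and 8.33 CPM, higher in 3 of 4 series. Their part in the Penk pattern was not tested.

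Of the markers of autonomic neurons and chromaffin cells, where enkephalin is stored, Phox2a and Ret had 0 reads in Penk-high cells. They had a read in only 2 and 3 of the 97 Penk-low cells, so these zeros do not set Penk-high cells apart. Gata3, a zinc finger factor that other cell types share, was at 100 CPM in 17.8% of Penk-high and 16.5% of Penk-low cells. The summed level of the 5 genes of this list used here had a median of 0 CPM in Penk-high cells (at most 572) and 4.65 CPM in Penk-low cells (at most 4308). Glia genes were likewise scarce, with a median sum of 0 CPM on both sides (at most 435 and 440). Foxd3 and Gfra3 had 0 reads in Penk-high cells and a read in 0 and 1 of the 97 Penk-low cells. Sox10, which defines neural crest glia, was at 100 CPM in 0 of 45. It had a read in 2 of them and was highest in C762 of name series 7, at 57.9 CPM with Penk at 667.9 CPM. Outside these 45, C110 of name series 1 had Penk at 896.2 CPM and Sox10 at 227.1 CPM. In the other Penk-high cells of series 1 to 3, Sox10 was at most 0.637 CPM.

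Mesenchymal genes were present instead. Col3a1, a fibrillar collagen, was at 100 CPM or more in 45 of 45 Penk-high cells, with means of 2852 and 3488 CPM on the 2 sides. Postn, a matrix protein of the cardiac cushions, was at that level in 86.7% of Penk-high and 96.9% of Penk-low cells, Sox9 in 80% and 68.04%, and Pdgfra in 71.1% and 74.2%. The fibroblast proteoglycans Lum and Dcn were at that level in 62.2% and 79.4% and in 20% and 20.6%. The summed level of the 8 mesenchyme genes had a median of 6022 CPM in Penk-high cells (1497 to 32455) and 8661 CPM in Penk-low cells (2644 to 33288), and 6 of the 8 had the lower mean in Penk-high cells. Their median fold was 0.776, compared with 1.22 for the 4 neuron genes in the contrast and 0.958 over all genes in it. On these lists the 45 Penk-high cells carried mesenchymal genes and had few or no reads of most neuron markers. Most neuron markers were scarce in Penk-low cells as well, so this scarcity is not particular to Penk-high cells. For the 45 Penk-high cells the data go against "neural-type" as a description. The term is not used further.

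Some genes of the cardiomyocyte list were more frequent in Penk-high cells. Fabp3, a fatty acid binding protein, was at 100 CPM in 60% of Penk-high and 31.96% of Penk-low cells, and Tnni1, the slow skeletal troponin I, in 62.2% and 47.4%. Actc1, cardiac actin, was called lower, with means of 63.1 and 153.1 CPM, although more Penk-high cells had it at 100 CPM (26.7% and 14.4%). Myh6, Myh7 and Nppa had 0 reads in Penk-high cells and a read in 2, 2 and 0 of the 97 Penk-low cells. The list's summed level had medians of 514 and 325 CPM, and its part in the Penk pattern was not tested.

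**Figure D3:**
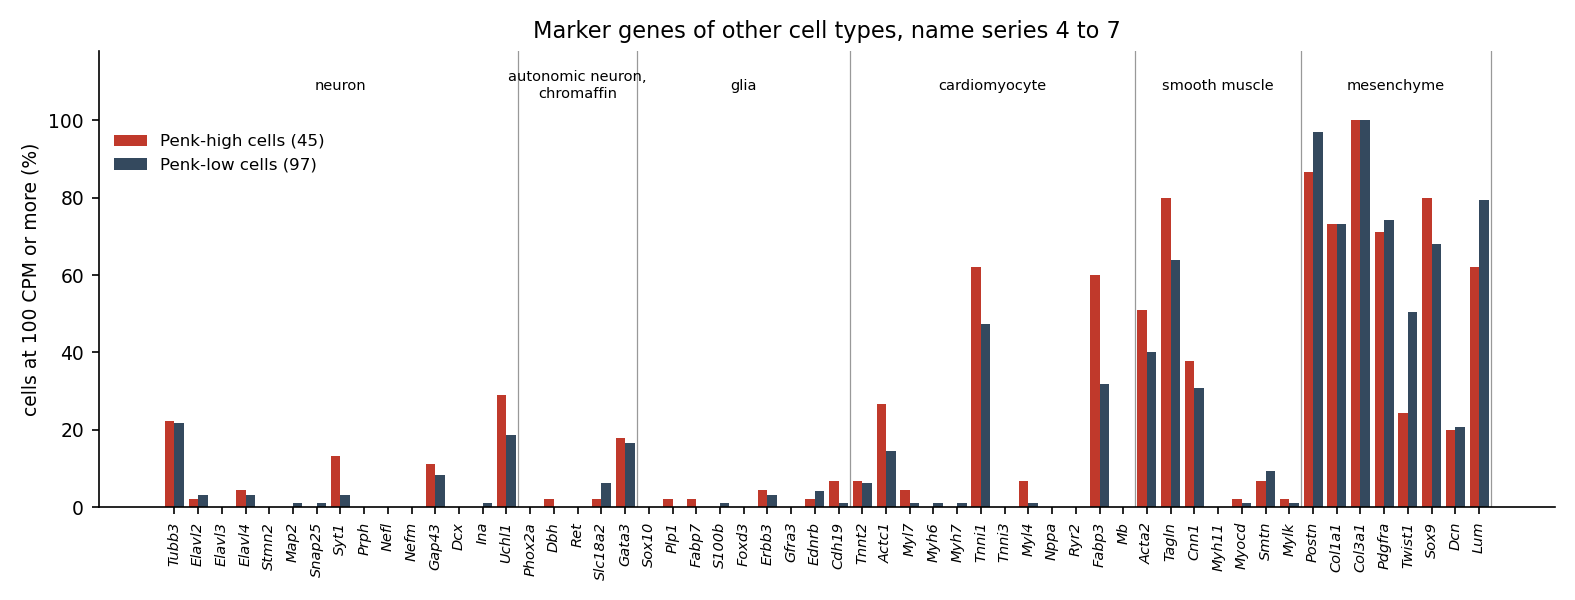
Percent of Penk-high (red, 45) and Penk-low (dark, 97) cells of name series 4 to 7 with each marker gene at 100 CPM or more, by marker list. Col3a1 is at that level in all cells of both sides, while most neuron, autonomic and glia markers are at or near 0.

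Of the other opioid genes, 0 of the 4 that entered the contrast were called, where 1.76% of all genes were called higher and 3.7% lower, so nothing is read from that count or from those of the lists that follow. Oprl1, the receptor of nociceptin, was at 100 CPM in 24.4% (11 of 45; 12.9% to 39.5%) of Penk-high cells and 6.19% (6 of 97; 2.30% to 12.98%) of Penk-low cells. Its means were 49.7 and 26.7 CPM, higher in 3 of 4 series. Oprd1, the delta receptor that binds enkephalins, and Pnoc, the nociceptin precursor, had 0 reads in Penk-high cells. They had a read in only 2 and 1 of the 97 Penk-low cells. Ogfr, the opioid growth factor receptor, was at 100 CPM in 26.7% of Penk-high and 32.99% of Penk-low cells, with means of 126.9 and 166.5 CPM. Ackr3, a chemokine scavenger receptor that also binds opioid peptides, had means of 106.8 and 154.1 CPM. Pdyn, Oprm1 and Oprk1 were not analysed here.

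Enkephalins are released from the precursor by prohormone convertases and then trimmed by carboxypeptidase E. Of 13 such processing and granule genes that are rows, 6 entered the contrast and 0 were called, a count too small to read against the 1.76% and 3.7% of all genes. Ctsl, the protease cathepsin L, was abundant, at 100 CPM in 97.8% of Penk-high and 75.3% of Penk-low cells, with means of 1168 and 840 CPM and the higher mean in 4 of 4 series. Cpe, carboxypeptidase E itself, was at that level in 57.8% and 38.1% of cells but had means of 191.7 and 207.7 CPM. The granule genes Pcsk1n, Scg5 and Scg3 had 0 reads in Penk-high cells and a read in 0, 2 and 2 of the 97 Penk-low cells. Pcsk1, Pcsk2, Chga and Chgb were not analysed here.

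Of 6 peptidases that degrade enkephalin, 3 entered the contrast and 0 were called. Dpp3, which cleaves dipeptides from the enkephalin end, had means of 66.6 and 66.1 CPM, and the aminopeptidase Npepps 111.5 and 101.5 CPM. Ece2, an endothelin-converting enzyme, had means of 20.5 and 42.1 CPM, lower in 3 of 4 series. Among 11 regulators of the CREB and AP-1 families, which act at the cAMP response element and related sites, 0 were called. Creb1 had means of 164.5 and 186.97 CPM and Fos 182.6 and 291.4 CPM, while Jun was at 100 CPM in 60% and 40.2% of cells with means of 182.4 and 173.7 CPM.

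The other contactins and their partners gave 0 calls among the 5 genes that entered beside Cntn4. App and Aplp1, a pair of amyloid precursor family proteins of which App is known to bind contactin-4, had the higher means in Penk-high cells. App was at 442.3 and 242.8 CPM, higher in 4 of 4 series and 1.79-fold, short of the 2-fold level. Aplp1 was at 134.6 and 30.3 CPM, 3.59-fold, in 3 of 4 series, and at 100 CPM in 31.1% and 8.25% of cells. Ncam1, a neural cell adhesion molecule, went the other way, with means of 395.6 and 516.4 CPM and the lower mean in 4 of 4 series. Cntn1 had 0 reads in Penk-high cells and a read in 3 of the 97 Penk-low cells.

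Beside Pcdh9, 5 protocadherin and cadherin genes entered the contrast and 0 were called. Pcdh18 and Pcdh11x, delta protocadherins like Pcdh9, had means of 231.2 and 163.1 CPM and of 72.8 and 43.6 CPM. Cdh11, the mesenchymal cadherin, was at 457.1 and 264.98 CPM in the mean, and Cdh2, N-cadherin, at 139.7 and 278.5 CPM with the lower mean in 4 of 4 series. Without Penk, Cntn4 and Pcdh9, which chose the cells or were chosen from them, median folds were 1.16 in the contactin list, 1.39 in the cadherin list, 0.90 in the opioid list and 1.04 in the processing list, beside 0.958 over all genes in the contrast.

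The other genes with the highest folds among those called higher, at 10 CPM in at least 50% of Penk-high cells, were 14 in number. Sema3c, a secreted semaphorin needed for septation of the outflow tract, had means of 521 and 48.6 CPM, 9.06-fold, and was at 10 CPM in 55.6% and 14.4% of cells. Its Penk-high means in series 4 to 7 were 896.6, 664.7, 281.2 and 241.7 CPM, and its Penk-low means 5.59, 7.70, 17.6 and 163.6 CPM. In series 7 the ratio was 1.45, so the gap there was small.

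Fbln5, which assembles elastic fibres, was at 10 CPM in 39 of 45 Penk-high and 42 of 97 Penk-low cells, with means of 2230 and 566 CPM (3.89-fold). Frzb and Sfrp2, both secreted antagonists of Wnt signalling, were at 324 and 75.2 CPM (3.92-fold) and at 2278 and 808 CPM (2.80-fold). Efnb2, the membrane ligand ephrin-B2, and its receptor Ephb4 were 2.87-fold and 3.36-fold higher. Scx, a transcription factor of tendon and valve progenitors, had means of 116.3 and 29.8 CPM (3.18-fold). The rule for a call asked these genes for the same direction in 4 of 4 series, so that direction does not set them apart from Cntn4 and Pcdh9.

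The others have varied functions. Tro (trophinin, 3.41-fold), 1110059G10Rik (3.10-fold), the interferon-induced GTPase Iigp1 (2.90-fold) and the zinc finger factor Yy1 (2.84-fold) were among them. So were the RNA helicase Ddx1 (2.81-fold), the signal recognition subunit Srp54a (2.78-fold) and the splicing factor Cwc22 (2.77-fold). Srp54a and Cwc22 have near-identical copies in the mouse genome, so their counts are uncertain.

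Among genes called lower that reached 10 CPM in at least 50% of Penk-low cells, the 8 with the lowest folds included 2 transcription factors of the cardiac mesenchyme. Twist1, a basic helix-loop-helix factor, had means of 59.2 CPM in Penk-high and 182.2 CPM in Penk-low cells, 2.78-fold lower, with Penk-high means of 54.8 to 67.7 CPM and Penk-low means of 153.3 to 202.3 CPM over the 4 series. Tbx20, a T-box factor, had means of 556.9 and 1234 CPM, 2.19-fold lower. The others were the microtubule protein Clasp2 (3.05-fold lower), the trafficking subunit Trappc2l (2.57-fold), the histone ubiquitin ligase Rnf20 (2.43-fold), the GTPase Arl5a (2.31-fold), the RNA-binding protein Rbm27 (2.30-fold) and the splicing factor Cdc5l (2.29-fold).

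Several calls rested on single cells, chiefly the 4 Penk-high cells of series 6. Leaving out C662 ended those of Fbln5, Scx, Sfrp2, Efnb2 and Iigp1, C611 those of Tro, Ephb4 and 1110059G10Rik, C666 that of Frzb and C660 that of Cwc22. The call was also lost for Efnb2 and Srp54a without C555, for Sfrp2 without C562, for Ddx1 without C753, for Cwc22 without C454 or C485, for 1110059G10Rik without C716, C721 or C723, and for Clasp2 without C709, C737 or C792. Iigp1 lost it in 24 and Yy1 in 20 of such runs, since the means of Iigp1 were nearly equal in series 5 (34.5 and 34.3 CPM) and those of Yy1 in series 7 (56.7 and 54.3 CPM). Sema3c, Twist1, Tbx20, Trappc2l, Rnf20, Arl5a, Rbm27 and Cdc5l kept theirs whichever compared cell was left out. Over the 20 alternative settings, which include leaving out 6 single cells in turn, Twist1 and Trappc2l were the only ones of the 22 named genes to keep the call throughout. Rbm27 and Cdc5l lost it in 5 of 20 settings, Rnf20 in 3, Arl5a in 2, Clasp2 and Tbx20 in 1 each, and Sema3c in 1, where 10 CPM was asked in 30% of cells and it did not enter.

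**Figure D4:**
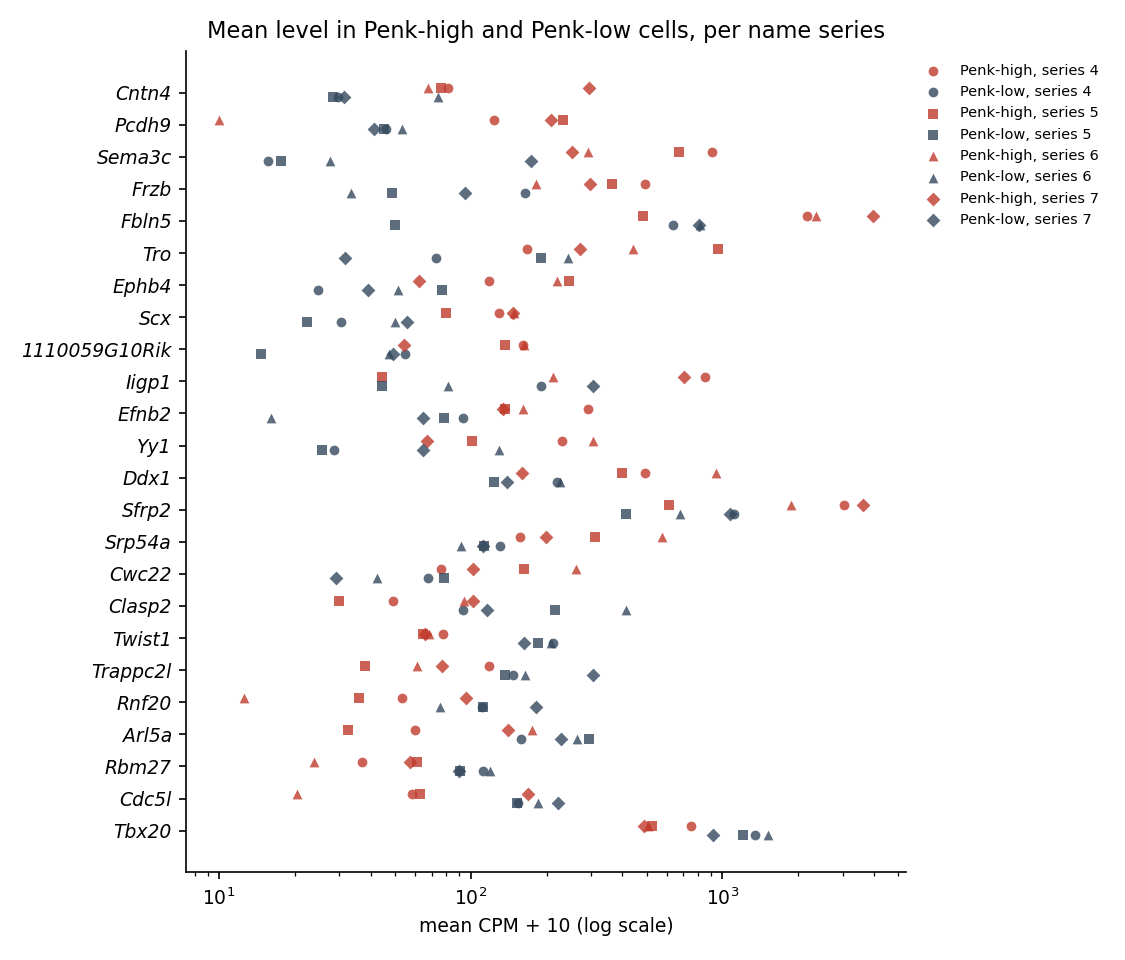
Mean CPM + 10 (log axis) of Cntn4, Pcdh9, the 14 genes called higher and the 8 called lower, in Penk-high (red) and Penk-low (dark) cells, 1 symbol per name series 4 to 7. Penk-high symbols lie right of the Penk-low symbols of the same series for Sema3c to Cwc22 and left for Clasp2 to Tbx20, while for Cntn4 and Pcdh9 series 6 (triangles) goes the other way.

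In name series 1 to 3, which the contrast did not use, the same genes kept their direction only in part. Of the 14 higher genes, 6, 9 and 7 had the higher mean in Penk-high cells of series 1, 2 and 3, where 46.3%, 40.9% and 43.8% of all genes did. As a background for 2-fold, 8.92%, 13% and 15.1% of all genes were 2-fold or more higher in these series, where sides were small. Among the 14, 1, 1 and 0 reached it. Scx, Sfrp2 and Iigp1 had the higher mean in all 3 series. For Iigp1 the Penk-high median was 0 CPM in series 2 and 3, with highest cells at 278.1 and 690.8 CPM, and the series 1 ratio was 1.03. Scx also had a Penk-high median of 0 CPM in series 2.

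Sfrp2 had means of 3454 and 1043 CPM in series 1, 2050 and 1292 CPM in series 2 and 3530 and 1895 CPM in series 3. Fbln5 was higher in series 2 (3077 and 1976 CPM) and series 3 (2655 and 1658 CPM) and lower in series 1 (1902 and 2203 CPM). Sema3c was nearly absent from series 3 (0 and 3.35 CPM) and on a par in series 1 (41.6 and 39.4 CPM). Of the 8 lower genes, 4, 3 and 5 were lower in these series, and Rbm27 was the only one lower in all 3. Twist1 had means of 55.9 and 48.4 CPM in series 1, 18.6 and 20.6 CPM in series 2 and 48.7 and 63.6 CPM in series 3.

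**Figure D5:**
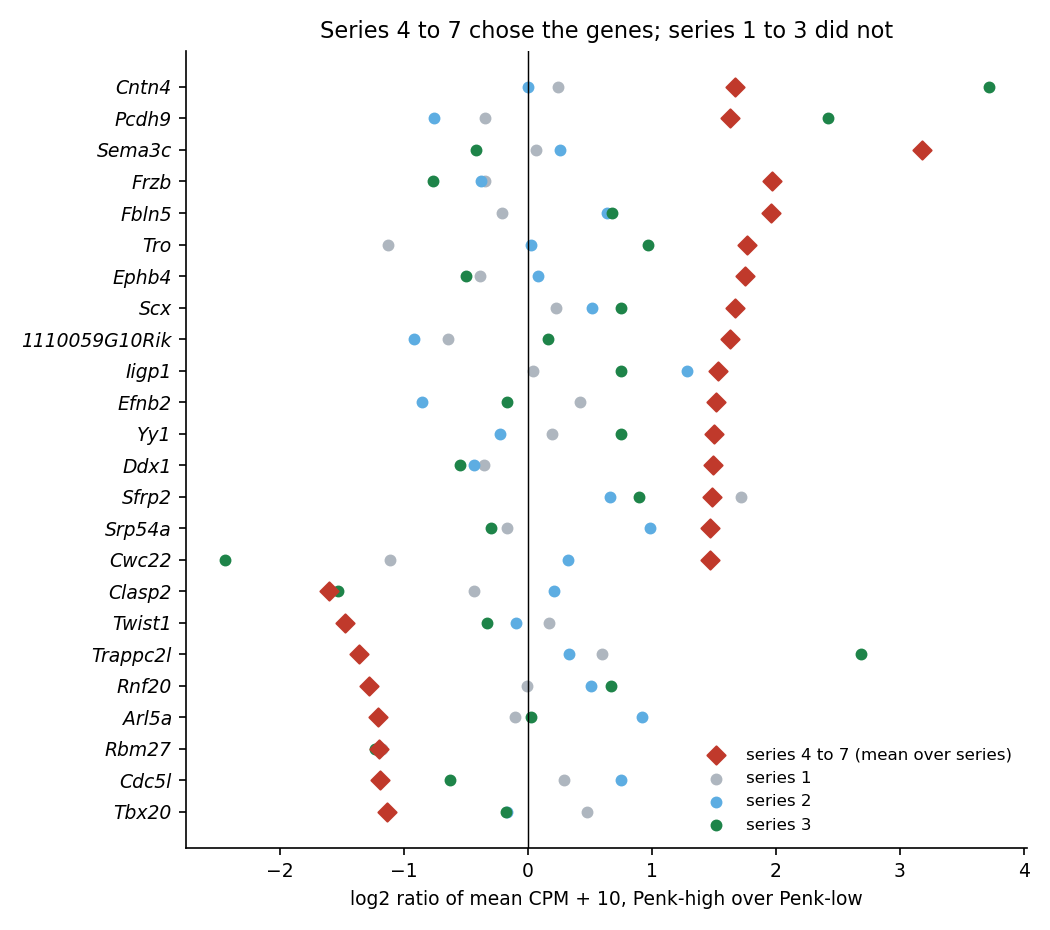
Log2 ratio of mean CPM + 10, Penk-high over Penk-low, for Cntn4, Pcdh9 and the named genes in name series 4 to 7 (red diamonds, which chose the named genes) and in series 1, 2 and 3 separately (grey, blue and green circles). Circles lie on both sides of 0 for most genes, and for Cntn4 and Pcdh9 the series 3 circle lies far to the right.

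The genes whose levels were most like those of Penk were ranked by Spearman's correlation of log2(CPM + 1), taken within each of name series 4 to 7 over the 45, 97 and 6 cells of all Penk levels and summarised by its median over the 4 series. The cells belong to 1 sample and differ in depth, and the values are descriptions with no p. Of 8466 genes, 742 had a positive correlation in every series. Fbln5 was first (0.42), followed by Hoxd3, a homeobox factor (0.38), the lipid-binding Osbpl11 (0.37), Sema3c (0.37), 2610042L04Rik (0.35), Frzb (0.34), the RNA-binding Elavl1 (0.34) and the chaperone partner Fkbp4 (0.33).

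Cntn4 stood at rank 21 of the 742 with 0.29 and ranged from 0.10 in series 6 to 0.48 in series 7. Pcdh9 had a median of 0.24, with 0.50 in series 7 and -0.06 in series 6. Twist1 (-0.32) and Tbx20 (-0.29) had negative values in all 4 series. Correlations of this size in sparse counts show only the order of genes.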

How the data were processed

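The deposited raw counts, whole numbers of reads for 15124 genes in 294 cells, were used throughout. Per the submitters' processing notes the tools were HISAT2 2.1.0, featureCounts and Seurat and the build mm10. The notes give no role or order, and annotation and strand setting are not given in the sources used here. The second deposited table, treated as a score of unstated origin with 14051 genes, served only as an alternative. Cell totals ran from 34046 to 3033857 reads (median 1204543). Reads carry no molecular identifiers, so intervals cover counting error only. No 2 cells had identical counts or names.

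CPM, Clopper-Pearson intervals, ratios and rank correlations were computed in Python 3.11.15 with pandas 2.3.3 and scipy 1.17.1, and the ratio code was tested on simulated data. With 1 sample no test was run. Text names the 15 genes of highest fold (Penk included) and the 8 of lowest among called genes at 10 CPM in at least 50% of the cells of their side. It also names 8 genes by likeness and some members of 16 lists (138 of 171 genes are rows). These were picked from members at 100 CPM in at least 5% of cells and from absent defining ones, and not every such member is named. The smooth muscle, endothelium, epicardium, blood and cell cycle lists are not described in the text. The 3 genes and all lists were chosen with earlier results of these data known. Alternatives changed thresholds, the amount added, filters, depth, table, series and single cells. C722 and C755 were left out of the contrast. Some listed marker genes are not reported here and were left out of the lists.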

Additional observations from a re-analysis of the deposited data

How the results depend on the processing

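Shares of cells depend on the level asked for. Penk was found in 29.9% of cells at 10 CPM, 51.02% at 1 read and 51.4% at 1 or more in the second table. For Cntn4 these were 11.6%, 23.5% and 23.8%, and for Pcdh9 20.7%, 38.1% and 38.4%. The other 9 alternatives for each share, thinning and leaving out each name series among them, moved it by less than its interval. Genes called higher were 1.76% of those tested. They were 0.635% with 50 CPM added, 3.09% with Penk-high at 500 CPM or more, and 1.45% (58 genes) with 10 CPM asked in 30% of cells or more. Leaving out name series 4, 5, 6 or 7 gave 3.63%, 3.71%, 3.89% and 3.65%, since fewer series then have to share a direction. The count stayed within 1.5 times under the other 13 of 20. The Cntn4 ratio was 9.51 with Penk-high at 500 CPM, and within 1 SD over series of the main value in the other 19 of 20. That of Pcdh9 was within it in 20 of 20. The SD was 1.37 log2 units for Cntn4 and 2.27 for Pcdh9, so wide that staying within it says little. The Cntn4 ratio of 1.71 without name series 7 still counted as within it. No ratio of the 22 named genes changed direction under these settings. The 22 were picked for extreme folds in nearly the same cells, so nothing is read from this. Leaving out C659, C727, C662, C611, C660 or C666 was chosen after the data were seen. No paired analysis was possible because all cells form 1 group and no result comes from a test. With 4 Penk-high cells in series 6 and sides of 6 to 9 in series 1 to 3, single cells set many means.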

Other observations

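The 5 cells with Cntn4 at 100 CPM or more outside the Penk-high cells lacked Pcdh9 altogether. Pcdh9 had a read in only 14 of the 97 Penk-low cells, so nothing is read from its absence in 5. They were C492 (432 CPM of Cntn4), C525 (399 CPM), C650 (235.2 CPM), C659 (1682 CPM) and C784 (293.9 CPM), from name series 4 to 7, and Penk was at 0 in 4 of them and at 4.32 CPM in C525. Col3a1 was at 1080 to 10339 CPM in the 5 cells, Sox10 had 0 reads, and Sema3c was at most 17.97 CPM. C659 had the highest Cntn4 level of the series, from 2980 reads.

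Outside the Penk-high cells, 15 cells had Pcdh9 at 100 CPM or more. In name series 4 to 7 there were 9 such cells, at 128.95 to 789 CPM of Pcdh9, and Cntn4 had 0 reads in each. Cntn4 had a read in only 12 of the 97 Penk-low cells, so nothing is read from that either. Series 2 added C239 (982 CPM), C251 (216.1 CPM), C255 (1312 CPM) and C265 (188.1 CPM), again without a read of Penk or Cntn4. C131 and C150 of series 1, at 124.2 and 123.9 CPM of Pcdh9, had 1 and 18 reads of Penk and 2 and 6 of Cntn4. Col3a1 was at 1252 to 18257 CPM in those 4 cells.

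In the 2 cells highest for Penk, C727 and C712, Cntn4 was at 197.5 and 920 CPM and Fbln5 at 12081 and 2998 CPM. Sema3c was at 4.55 and 547 CPM.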
